A study of Mus musculus with 1 sample.

Results

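The cells described here are 94 Sertoli cells in which at least 1 transcript of Uchl1 was counted, out of 263 Sertoli cells and 970 cell barcodes in 1 single-cell RNA sequencing library. They were chosen by their own measured counts of unique molecular identifiers (UMIs, each standing for 1 captured transcript). A barcode had to hold at least 500 genes, under 10% of its UMIs from mitochondrial genes and fewer than 4 UMIs per 10000 from the germ cell genes Dazl, Ddx4, Mael, Zbtb16 and Sohlh1 together. Its summed UMIs of the Sertoli genes Clu, Inha, Defb19 and Rhox8 had to reach 5 and to exceed those of a stromal set (Dcn, Col1a1, Col3a1), a muscle-like set (Acta2, Myl9, Tagln) and a macrophage set (Lyz2, C1qa, Fcer1g). Cells that also had at least 1 Uchl1 UMI are called Uchl1+ here, and the other 169 Sertoli cells are those with 0 Uchl1 UMIs. Levels of these selection genes therefore describe the choice and are no finding.

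The study screened transcription factors in cultured mouse spermatogonia and followed the factor ZSCAN2 in a knockout line. The library used here is the wild-type (Zscan2+/+) control, made from the testes of C57BL/6 mice at postnatal day 8, with equal cell numbers from 3 mice mixed before capture on the Chromium platform. Cells bearing THY1, a surface protein that enriches spermatogonia, had been isolated on magnetic beads and some unselected testis cells returned to them, and the share of Sertoli cells reflects this mixture. Which cell came from which mouse is not recorded, which leaves 1 sample and no replicates, and the intervals given are 95% intervals for counting error only. No p-values were computed, since cells of 1 library are not replicates.

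Sertoli cells are the somatic nurse cells of the seminiferous tubule. They surround the germ cells, seal the tubule with tight junctions, supply lactate, retinoic acid and growth factors to spermatogonia, and in the mouse stop dividing in the weeks after birth. UCHL1 is a ubiquitin C-terminal hydrolase, an enzyme that releases ubiquitin from short adducts. It is abundant in neurons and in spermatogonia, where it serves as a germ cell marker.

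The label of Sertoli cell was held against genes that the selection did not use. Sox9, the transcription factor that fixes Sertoli fate, had 495 UMIs per 1000000 UMIs (CPM) in Uchl1+ cells and a UMI in 93.6% of them, against 16.4 CPM in stromal and 6.27 CPM in germ cells. Amh, the hormone that removes the Müllerian ducts, was at 417 CPM in Uchl1+ cells and at 3.23 CPM in germ cells. The level of the tight junction gene Cldn11 was 502 CPM, against 5.92 CPM in stromal cells. The orphan gene Aard stood at 1042 CPM in Uchl1+ cells against 11.3 CPM in germ cells, and Wt1, a regulator of the gonadal soma, at 359.7 CPM against 4.30 CPM. Fshr, the receptor for follicle stimulating hormone, was found in only 14.9% of Uchl1+ cells and 15.98% of cells with 0 Uchl1 UMIs, and Trf, which encodes transferrin, had 8 UMIs in all Uchl1+ cells. Trf was lower in Uchl1+ cells, at 8.77 CPM, than in germ cells, at 13.8 CPM. Apart from Fshr and Trf, each of these genes had a UMI in at least 84.0% of the Uchl1+ cells. Gata4 and Dhh, also outside the selection, had a UMI in 69.15% and 78.7% of Uchl1+ cells, against 26.3% and 2.29% of stromal cells.

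Uchl1 (ENSMUSG00000029223) is a gene of chromosome 5, at chr5:66676091-66687234 on the plus strand of the mouse assembly GRCm38. An antisense gene, Uchl1os, overlaps it on the other strand and had 0 UMIs in Uchl1+ cells and 0 UMIs in the other Sertoli cells. The promoter of Uchl1 is printed with those of Fstl3 and Siva1, which accompanied it in these cells as described further on, each with 250 bases before and 50 bases after the transcription start in RefSeq (GRCm38.p6). Capitals mark matches, on either strand, to 5 short motifs. AGGTCA is bound by nuclear receptors such as NR5A1. The second motif, AGATAA, is bound by the GATA4 family. ACAAAG is a motif of SOX proteins. The remaining ones, with the letters GGGCGG for the so-called GC box and the letters TATAAA for the element next to many start sites, are core promoter motifs.
Uchl1, chr5:66675871-66676170, plus strand: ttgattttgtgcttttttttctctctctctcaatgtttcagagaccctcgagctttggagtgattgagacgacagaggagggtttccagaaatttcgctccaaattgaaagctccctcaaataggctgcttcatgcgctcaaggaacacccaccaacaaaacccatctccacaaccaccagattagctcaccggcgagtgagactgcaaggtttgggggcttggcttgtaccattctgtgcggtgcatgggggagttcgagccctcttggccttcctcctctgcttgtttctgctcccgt
Fstl3, chr10:79777024-79777323, plus strand: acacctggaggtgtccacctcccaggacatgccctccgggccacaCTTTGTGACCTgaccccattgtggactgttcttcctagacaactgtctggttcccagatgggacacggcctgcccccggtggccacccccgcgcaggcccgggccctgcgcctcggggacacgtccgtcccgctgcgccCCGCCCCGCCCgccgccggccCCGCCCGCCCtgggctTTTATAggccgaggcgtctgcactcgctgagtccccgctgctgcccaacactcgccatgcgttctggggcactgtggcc
Siva1, chr12:112644578-112644877, plus strand: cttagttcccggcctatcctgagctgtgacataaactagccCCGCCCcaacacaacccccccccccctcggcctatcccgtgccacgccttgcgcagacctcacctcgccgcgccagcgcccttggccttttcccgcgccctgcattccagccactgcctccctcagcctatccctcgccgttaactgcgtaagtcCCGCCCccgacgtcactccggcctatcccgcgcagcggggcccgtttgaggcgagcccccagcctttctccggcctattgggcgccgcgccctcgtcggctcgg
The Uchl1 window held 0 matches, the Fstl3 window 7 and the Siva1 window 2. In Fstl3 the SOX and nuclear receptor letters overlapped by 1 base, 4 GC boxes followed in overlapping pairs, and the reverse complement of TATAAA stood 29 bases before the start. Of 32851 promoter windows of the same length, 18.7% held the SOX letters, 16.3% the nuclear receptor letters, 11.2% the GATA letters, 35.7% the GC box and 13.6% the letters TATAAA. Of the 23 genes named for the highest and lowest ratios, 14 had a window in this table.

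Most Uchl1+ cells held few Uchl1 transcripts. A single Uchl1 UMI was found in 53 of the 94 cells, 2 UMIs in 17 cells and 3 UMIs in 13 cells, and the highest count was 14. The cells just inside the threshold are thus the 53 with 1 UMI, at 103.5 Uchl1 CPM as a group, and those just outside it are the 169 with 0. A count of 0 in the median cell of that group, with 8343 UMIs, allows a level of up to 359.6 CPM, and in its deepest cell of up to 137 CPM. A Sertoli cell with 0 Uchl1 UMIs can therefore have held as much of the transcript as many Uchl1+ cells.

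**Figure D1:**
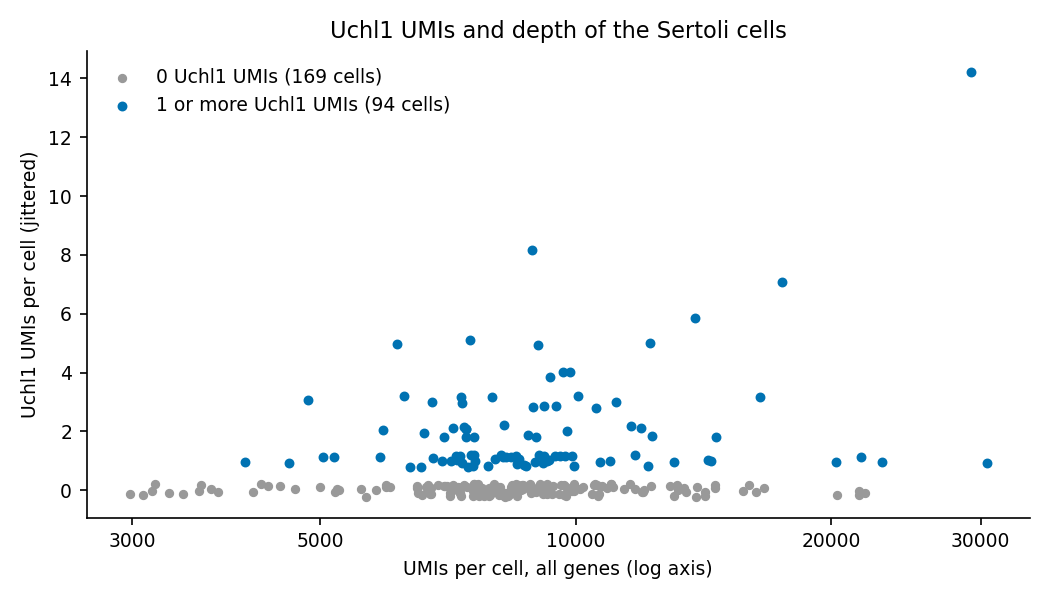
Each point is 1 of the 263 Sertoli cells, with its total UMIs on a log axis across and its Uchl1 UMIs (jittered vertically) upward. Uchl1+ cells (blue) and cells with 0 Uchl1 UMIs (grey) span overlapping depths, from 4073 to 30509 and from 2979 to 21938 UMIs, and the cell with 14 Uchl1 UMIs is among the deepest.

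Among the somatic classes the Sertoli cells had the highest Uchl1 level, at 80.1 CPM (69.2 to 92.3) from 193 UMIs. Stromal cells had 16.4 CPM (10.6 to 24.3), peritubular myoid cells, which wrap the tubule, 15.8 CPM (8.39 to 26.9) and macrophages 20.6 CPM (10.7 to 36.1), and these 3 intervals overlapped one another but not that of the Sertoli cells. Germ cells had 729 CPM. A Uchl1 UMI was found in 35.7% of Sertoli cells (30.0 to 41.9%, exact binomial interval, median depth 8404 UMIs), 11.4% of stromal cells (7.12 to 17.1%, 8349 UMIs), 11.3% of peritubular myoid cells (5.99 to 18.9%, 7327.5 UMIs), 23.3% of macrophages (11.8 to 38.6%, 12321 UMIs) and 98.2% of germ cells (96.1 to 99.3%, 18213 UMIs). With each cell thinned to 4000 UMIs, which left out 10 Sertoli, 4 stromal, 3 myoid, 1 macrophage and 35 germ cells, the shares were 23.7% (18.6 to 29.4%), 6.43% (3.26 to 11.2%), 7.77% (3.41 to 14.7%), 4.76% (0.582 to 16.2%) and 88.0% (83.7 to 91.5%). After thinning, the Sertoli interval thus did not overlap those of the stromal and myoid cells. These intervals cover counting error within 1 library only. Uchl1 detection also defined the Uchl1+ cells, so the shares are a description. At least 3 Uchl1 UMIs were found in 24 Sertoli cells, or 9.13% of them, and in 0 stromal, 0 myoid and 0 macrophage cells. Whether the shares in stromal and myoid cells come from free RNA or from low expression was not tested, nor how many of the 53 Sertoli cells with a single UMI hold no more than those cells do.

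**Figure D2:**
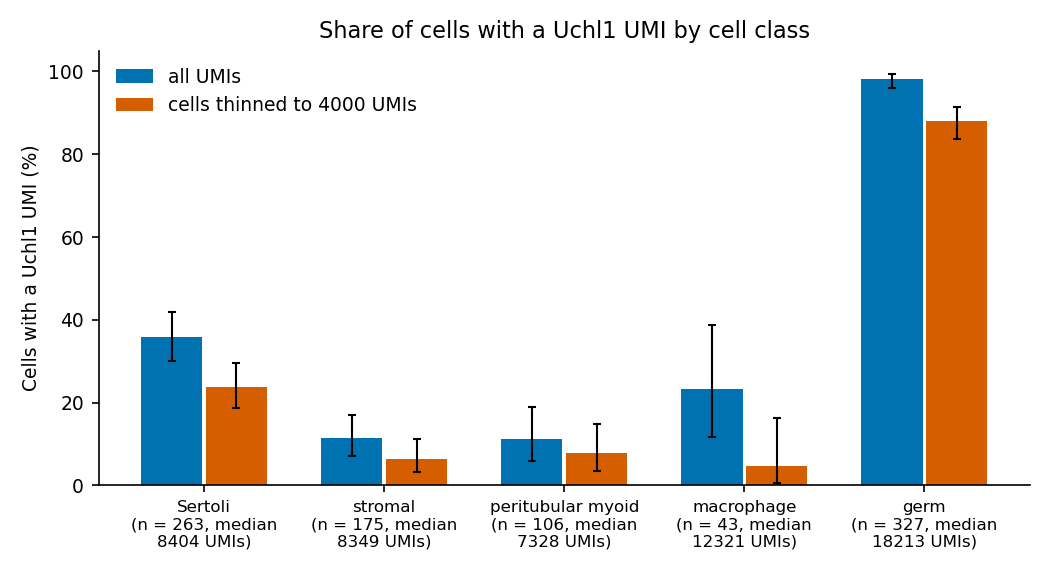
Bars give the percent of cells with at least 1 Uchl1 UMI in each cell class, with all UMIs (blue) and after thinning every cell to 4000 UMIs (orange), and lines are exact 95% binomial intervals. Sertoli cells, at 35.7% and 23.7%, stand above stromal and peritubular myoid cells and below germ cells, at 98.2% and 88.0%.

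Most germ cell genes outside the selection were at a smaller share of their germ cell level than Uchl1. The Sertoli level of Uchl1 was 11.0% of its germ cell level, whereas over 22 other germ cell genes with at least 100 UMIs in germ cells the Sertoli level was a median 1.68% of the germ cell level (0% to 17.6%). The highest were Kit at 17.6% and Taf4b at 17.4%, with 13 and 16 UMIs in all Sertoli cells. Of these genes 5 (Dazl, Ddx4, Mael, Zbtb16 and Sohlh1) were capped by the selection. Their shares, from 1.14% to 2.32%, were therefore set by the choice, and the median includes them. Stra8, a retinoic acid target of differentiating spermatogonia, was at 1.195%, Sycp3, a component of the meiotic chromosome axis, at 1.71% and Sall4, a spermatogonial transcription factor, at 1.04%. The 18 germ cell genes that the selection did not use summed to 45.8 CPM in depth-matched Uchl1+ cells and 41.3 CPM in the matched cells with 0 Uchl1 UMIs, against 1445 CPM in germ cells. Their most abundant gene was Nanos3 with 7 UMIs in Uchl1+ cells, and Lin28a, Dmrtb1, Gfra1, Ret, Tex13a and Upp1 were at 0 there, although Tex13a had 0 UMIs in germ cells as well.

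To compare the remaining genes without an effect of depth, Uchl1+ cells were paired with the Sertoli cell of nearest depth that had 0 Uchl1 UMIs. This gave 92 cells in each group, from 94 Uchl1+ cells. The deepest Uchl1+ cells, with 29184 and 30509 UMIs, stayed unpaired and are not in the matched ratios. The first of them was the cell with 14 Uchl1 UMIs. The matched groups held 852123 and 848159 UMIs, with a median of 8561 and 8538 UMIs, 2940 and 2939 genes, 6.01% and 6.12% mitochondrial and 21.6% and 22.3% ribosomal protein UMIs per cell. UMIs of a gene were summed over each group, and their ratio is given on the log2 scale with its exact conditional binomial interval. Over 2683 genes with at least 100 UMIs the median log2 ratio was -0.0067. A level at least 1.5 times higher in Uchl1+ cells was found for 63 genes (2.35%), and a level at least 1.5 times lower for 43 genes (1.60%). The matched Uchl1+ cells had 178 Uchl1 UMIs, or 209 CPM, by selection.

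A small group of genes stood well above the rest in Uchl1+ cells. Fstl3, which encodes a secreted antagonist of activin, had 106 UMIs in Uchl1+ cells and 19 in the matched cells, or 124 and 22.4 CPM, a log2 ratio of 2.47 (1.76 to 3.26). It was detected in 47.8% of Uchl1+ and 13.0% of the matched cells, with at most 6 UMIs in a cell. The gene 8030411F24Rik had 388 against 91.96 CPM, a log2 ratio of 2.08 (1.72 to 2.45), and a UMI in 76.1% against 45.7% of cells. Both of these genes were undetected in most of the matched cells with 0 Uchl1 UMIs.

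Lgals1, which encodes the lectin galectin-1, was abundant in both groups, with 1409 UMIs in Uchl1+ cells and 386 in the matched cells. Its levels of 1654 and 455 CPM gave a log2 ratio of 1.86 (1.70 to 2.03), while the shares of cells with a UMI, 91.3% and 84.8%, were close. Its counts per cell ranged up to 61 UMIs in Uchl1+ and up to 32 UMIs in the matched cells. Siva1, a regulator of apoptosis, behaved likewise, with 715 against 229 CPM, a log2 ratio of 1.64 (1.41 to 1.88), and a UMI in 90.2% against 77.2% of cells. Cidea, a lipid droplet protein, had 189 against 58.95 CPM, a log2 ratio of 1.68 (1.21 to 2.17), and a UMI in 59.8% against 30.4% of cells.

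The next 6 genes had log2 ratios between 1.13 and 1.26. They were Sh3gl3, an endophilin (1.26, 0.67 to 1.88), Coro1b, an actin-binding coronin (1.23, 0.63 to 1.87), Col4a2, a basement membrane collagen chain (1.22, 0.61 to 1.85), Pdlim7, a scaffold of actin filaments (1.19, 0.65 to 1.76), Nr0b1, an orphan nuclear receptor of the gonad (1.14, 0.53 to 1.78), and Gpcpd1, a glycerophosphocholine phosphodiesterase (1.13, 0.64 to 1.64). Each had between 73 and 110 UMIs in the matched Uchl1+ cells and at least 33 in the matched cells. Without the richest cell of each group the log2 ratios of these 11 genes lay between 1.13 and 2.73. Coro1b shares its strand with an overlapping gene, Ptprcap, and none of the other 10 overlaps a listed gene on its own strand in the annotation. Among cells with no UMI of the 5 germ cell genes of the selection, the Coro1b ratio was 0.55, under 1.5 times. So were Pdlim7, at 0.52 against all 169 cells with 0 Uchl1 UMIs, and Gpcpd1, at 0.54 under a mitochondrial limit of 5%. Fstl3, Sh3gl3, Coro1b, Col4a2, Pdlim7 and Nr0b1 had fewer than 50 UMIs in the matched cells and reached the minimum of 100 UMIs through the Uchl1+ group, so their place among the highest was in part set by that minimum.

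**Figure D3:**
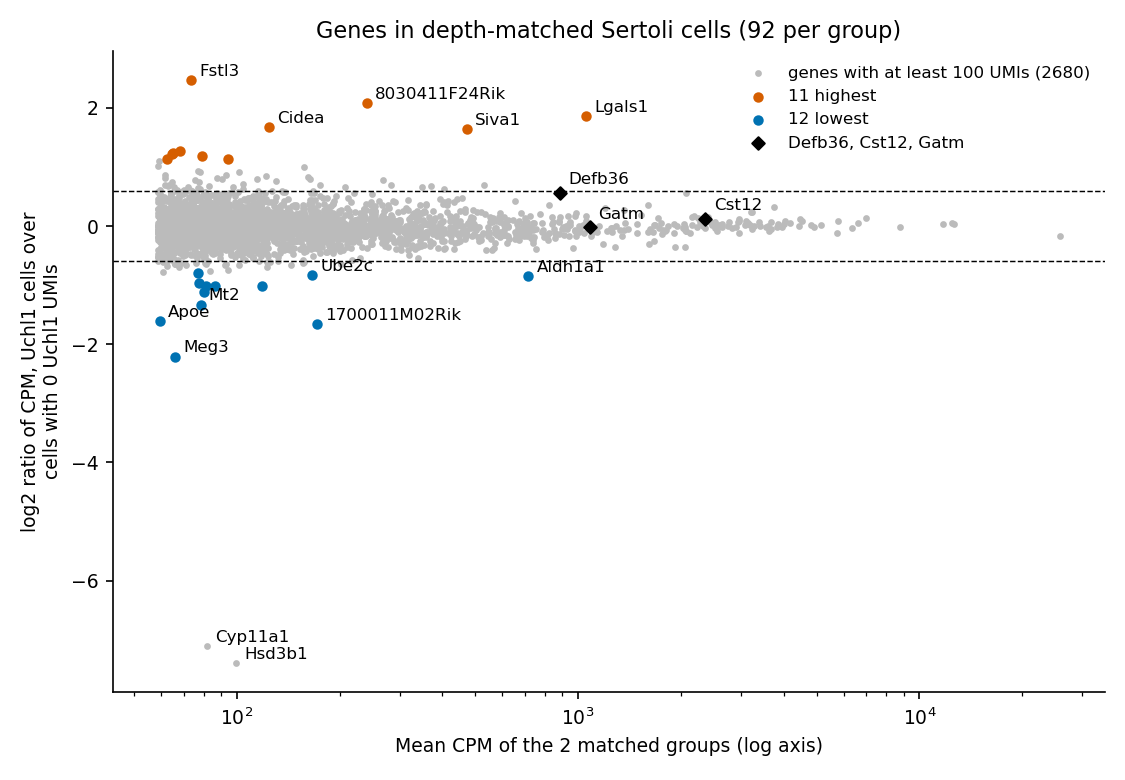
Each point is a gene with at least 100 UMIs over both groups, with its mean CPM in the matched groups on a log axis across and the log2 ratio of Uchl1+ cells over cells with 0 Uchl1 UMIs upward, and dashed lines mark 1.5 times. Fstl3, 8030411F24Rik, Lgals1, Cidea and Siva1 lie between 1.64 and 2.47, Cst12 and Gatm near 0, and the Leydig genes Hsd3b1 and Cyp11a1 at -7.40 and -7.115.

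Of the markers given with the label, Uchl1 was the selection gene, and the other 3 differed by less than 1.5 times from the other Sertoli cells. Defb36, a beta-defensin of Sertoli cells, had 900 against 605 UMIs, a log2 ratio of 0.57 (0.42 to 0.72), just under 1.5 times. It passed 1.5 times with 3 other settings, at 0.84 when at least 2 Uchl1 UMIs were required, 0.95 when at least 3 were required and 0.69 among cells with no UMI of the germ cell genes of the selection. Cst12, a cystatin, had 2463 against 2261 CPM, a log2 ratio of 0.12 (0.033 to 0.21). Gatm, which makes the creatine precursor guanidinoacetate, had 1078 against 1091 CPM, a log2 ratio of -0.016 (-0.15 to 0.12). Defb36, Cst12 and Gatm are genes of Sertoli cells in this library as a whole, at 1053, 2417 and 1090 CPM in the 94 Uchl1+ cells and at 12.5, 25.0 and 33.5 CPM in stromal cells.

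The genes that stood lowest rested on fewer cells. Meg3, an imprinted long noncoding RNA, had 20 against 92 UMIs, a log2 ratio of -2.21 (-2.99 to -1.50), but 63 of those 92 UMIs came from 1 cell. The Meg3 ratio was 0.32 with at least 2 Uchl1 UMIs, so its direction turned there. Under a mitochondrial limit of 5%, with 16 cells per group compared, it was 0.0042, almost no difference. 1700011M02Rik had 70 against 221 UMIs, a log2 ratio of -1.665 (-2.08 to -1.27), with 78 UMIs in 1 of the matched cells. Apoe, a lipid carrier, had 25 against 76 UMIs and a log2 ratio of -1.61 (-2.33 to -0.94), and Mt2, a metallothionein, 38 against 95 UMIs and -1.33 (-1.91 to -0.77), with 40 and 32 UMIs from a single cell of the matched group. Without the richest cell of each group these log2 ratios were -2.06, -1.52, -0.72 and -0.81. Shares of cells with an Apoe UMI were 21.7% and 20.7%, so the difference in Apoe lay in a few rich cells.

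The other 8 of the 12 lowest genes ranged from some found in few cells to some found in nearly all. Smc4, a condensin subunit, had 43 against 93 UMIs, a log2 ratio of -1.12 (-1.68 to -0.58), from 23 and 33 cells. Fkbp5, a chaperone induced by androgens and glucocorticoids, was found in 32.6% against 57.6% of cells and had a log2 ratio of -1.007 (-1.55 to -0.48). Aamdc, an adipogenesis-linked gene, was found in 42.4% against 62.0% of cells (-1.007, -1.53 to -0.50), and Id2, an inhibitor of helix-loop-helix factors, in 48.9% against 57.6% of cells (-1.007, -1.45 to -0.57). The remaining 4 were Ifi204, an interferon-induced gene (-0.96, -1.51 to -0.42), Aldh1a1, a retinaldehyde dehydrogenase (-0.85, -1.02 to -0.68), Ube2c, a mitotic ubiquitin-conjugating enzyme (-0.83, -1.19 to -0.47), and Fdx1l, a mitochondrial ferredoxin (-0.80, -1.34 to -0.27). Ube2c was found in only 21 and 27 cells, with up to 17 and 28 UMIs in a cell. Under the 5% mitochondrial limit 1700011M02Rik was at -0.41, Aamdc at -0.29 and Fkbp5 at -0.54, all within 1.5 times, and Ube2c was within it or reversed in 4 of 12 alternatives. The minimum of 100 UMIs acted here too, since 8 of the 12 had fewer than 50 UMIs in Uchl1+ cells and reached it through the cells with 0. Hsd3b1 and Cyp11a1 had lower ratios than any of these, but were left out of the 12 because fewer than 10% of the cells of either group had a UMI.

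Those steroid enzymes belong to Leydig cells, the interstitial cells that make testosterone. The 5 Leydig genes summed to 18.8 CPM in matched Uchl1+ cells and 453 CPM in the matched cells with 0 Uchl1 UMIs, led by Cyp17a1 with 13 UMIs and by Hsd3b1 with 168 UMIs, and Hsd3b6 was at 0 in Uchl1+ cells. Of the 263 Sertoli cells 6 had at least 10 UMIs of these genes, up to 361, and 1 of them was Uchl1+. In the matched groups 1 such cell was Uchl1+ and 2 were not. When these 6 cells were left out and the rest matched again, the log2 ratios were -1.72 for Meg3, -1.53 for 1700011M02Rik, 0.20 for Apoe, -0.71 for Mt2 and -0.63 for Aldh1a1, and those of Fstl3, Lgals1 and Siva1 were 2.47, 1.91 and 1.70. The lower Apoe level was therefore not present without these cells, while the ratios of Fstl3, Lgals1 and Siva1 were at least as large to 2 decimals. Without them 52 of 2646 genes were at least 1.5 times higher, against 63 of 2683 with them, and Coro1b was at 1.09.

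Genes of retinoid handling lay on both sides of 0. Retinol is taken up by STRA6, oxidised to retinaldehyde by RDH10 and then to retinoic acid by the ALDH1A enzymes, and retinoic acid is broken down by the CYP26 enzymes. Of 11 genes on this list 7 had at least 20 UMIs, of which 2 were at least 1.5 times higher in Uchl1+ cells and 2 at least 1.5 times lower, against 8.53% higher and 8.77% lower of all 7788 genes with at least 20 UMIs. The list median was 0.21 and that of all 7788 genes -0.0067. Rdh10 had 31 UMIs in 19 Uchl1+ cells and 3 UMIs in 3 matched cells, a log2 ratio of 3.36 with a wide interval (1.68 to 5.72), and it reached the minimum of 20 UMIs only through the Uchl1+ group. Without it 1 of 6 list genes was higher and 2 lower, with a median of 0.031. Stra6 had 76.3 against 33.0 CPM, a log2 ratio of 1.21 (0.55 to 1.90), and a UMI in 42.4% against 21.7% of cells, and it overlaps the gene Gm16131 on its own strand. A mitochondrial limit of 5% left 59 Sertoli cells, of which 16 Uchl1+ cells were compared with 16 matched cells. The Stra6 ratio was then -1.32, so its direction turned, but this rests on few cells and no interval is given.

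Genes of the later steps were lower or close between the groups. Aldh1a1 had 435 UMIs in Uchl1+ and 779 in the matched cells, or 510.5 and 918.5 CPM, with a median of 4 and 6 UMIs per cell. A single matched cell held 97 of those UMIs, and without the richest cell of each group its log2 ratio was -0.755. Aldh1a2 had 29 against 32 UMIs (-0.15, -0.93 to 0.62). The breakdown enzyme Cyp26b1 had 11 against 22 UMIs, a log2 ratio of -1.007 whose interval (-2.20 to 0.099) included 0. The receptor genes Rara, at 107 against 92 UMIs (0.21, -0.20 to 0.63), and Rxra, at 12 against 10 UMIs (0.26, -1.08 to 1.63), differed by less than 1.5 times, and Aldh1a3, Crabp1, Cyp26a1 and Crabp2 had 8, 6, 0 and 0 UMIs in both groups together.

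The factors that give Sertoli cells their identity were close between the groups, apart from a pair of nuclear receptors. Of 10 such genes with at least 20 UMIs, 2 were at least 1.5 times higher and 0 lower, against 8.53% and 8.77% of all genes with that many UMIs, with a median log2 ratio of 0.17. Aard (0.16, 0.019 to 0.31), Sox9 (0.26, 0.049 to 0.47) and Amh (-0.13, -0.33 to 0.081) had the most UMIs. Nr0b1 had 85.7 against 38.9 CPM, as given above, and Nr5a1, the nuclear receptor that switches on steroidogenic and Sertoli genes, 98 against 56 UMIs (0.80, 0.31 to 1.30). Wt1 (0.14), Gata4 (0.086), Sox8 (0.17), Mro (0.18) and Dmrt1 (-0.070) lay within 1.5 times.

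Hormone receptor and steroid genes had 0 members of 7 higher and 2 lower, against 8.53% and 8.77% of all genes, with a median of -0.36. Without the 6 cells rich in Leydig transcripts 1 was lower and the median was -0.11. The thyroid hormone receptor gene Thra (0.024, -0.17 to 0.22), Amhr2, the AMH receptor (-0.17, -0.42 to 0.072), and Hsd17b1, a 17-beta-hydroxysteroid dehydrogenase (-0.36, -0.69 to -0.038), were the most abundant. Inhbb, an inhibin and activin subunit, had the highest ratio of the list (0.065, -0.31 to 0.44). The low values of Inhba, with 4 against 18 UMIs, and Star, with 9 against 26 UMIs, rested on few cells, since 15 of the 18 Inhba UMIs came from 1 cell. Without the Leydig-rich cells the log2 ratio of Inhba was 0.58.

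Signals to germ cells lay on both sides of 0, and those past 1.5 times had few UMIs. Of 8 niche genes with at least 20 UMIs, 2 were higher and 2 lower, against 8.53% and 8.77% of all genes, with a median of -0.060. Wnt5a had 34 against 15 UMIs (1.17, 0.26 to 2.16) and Notch1 52 against 32 UMIs (0.69, 0.031 to 1.38). Gdnf, the growth factor of spermatogonial stem cells, had 15 against 30 UMIs (-1.007, -2.01 to -0.067), and Hes1, a Notch target, 17 against 36 UMIs (-1.09, -2.01 to -0.22). The abundant signals Wnt6 (-0.23, -0.43 to -0.021), Kitl, the ligand of KIT (-0.064, -0.37 to 0.24), and Dhh, the hedgehog ligand of the testis (-0.056, -0.36 to 0.25), were within 1.5 times. The 4 genes past 1.5 times each had at most 52 UMIs in either group.

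8030411F24Rik sits within a cluster of cystatin genes on chromosome 2, and its neighbours were not at least 1.5 times higher with it. It lies on the plus strand at chr2:148782009-148785937, between Cst11 at chr2:148768609-148771497 and Cst12 at chr2:148789361-148793546. Cst11 had 10 against 19 UMIs (-0.93, -2.20 to 0.24). Beyond Cst12, whose log2 ratio was 0.12, came Cst8 with 53 against 89 UMIs (-0.75, -1.27 to -0.25), Cst13 with 1 UMI in each group, Cst9 with 1536 against 1951 UMIs (-0.35, -0.45 to -0.25) and Cst3 with 543 against 607 UMIs (-0.17, -0.34 to 0.0019). Over the list of beta-defensins and cystatins, 0 of 7 members were at least 1.5 times higher and 2, Cst8 and Cst11, were at least 1.5 times lower, against 8.53% and 8.77% of all genes, with a median of -0.35. A single matched cell held 30 of the 89 Cst8 UMIs, the shares of cells with a Cst8 UMI were 43.5% and 44.6%, and without the richest cell of each group its ratio was -0.25. Without the Leydig-rich cells 1 member of the list was lower and the median was -0.091.

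Genes related to UCHL1 by function were mostly close between the groups. Of 6 ubiquitin hydrolase and ubiquitin genes 1 was higher and 0 lower, against 8.53% and 8.77% of all genes, with a median of 0.064. That member was Bap1, with 25 against 13 UMIs and an interval that included 0 (0.94, -0.085 to 2.03). The Bap1 ratio turned to -0.59 with at least 3 Uchl1 UMIs and to -0.11 among cells with no UMI of the germ cell genes of the selection. After thinning to 4000 UMIs it was 0. Uchl3 had 50 against 60 UMIs (-0.27, -0.84 to 0.30) and Uchl5 23 against 16 UMIs (0.52, -0.47 to 1.54). The ubiquitin genes Rps27a (-0.022) and Ubb (0.15) differed by less than 1.5 times between the groups, and Usp14, a proteasomal hydrolase, had a log2 ratio of -0.28 (-1.04 to 0.47).

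Structural and metabolic genes were read against the same 8.53% higher and 8.77% lower of all genes. Of 11 junction and cytoskeleton genes 0 passed 1.5 times in either direction (median 0.15), with Tubb5 at 0.0094, Vim at 0.15, Cldn11 at 0.24, Cdh2 at 0.50 and Tjp1 at -0.49. Of 10 lactate and glycolysis genes 0 passed it either (median -0.040), with Ldhb at 0.066, Aldoa at -0.18, Gapdh at -0.10 and Slc16a1 at 0.36. Slc16a1, with 18 against 14 UMIs, passed 1.5 times in 7 of 12 alternatives, and was at 0.84 without the Leydig-rich cells. Both creatine genes with enough UMIs were within 1.5 times, Gamt at -0.40 (-0.62 to -0.17) and Gatm as given above. Among 11 glutathione S-transferase genes Gsta3 passed 1.5 times with an interval that included 0 (0.60, -0.011 to 1.23), and Mgst3 (-0.67, -1.05 to -0.29) and Gstm5 (-0.61, -0.98 to -0.25) were lower, while the abundant Gstm1, Gstm2 and Gstm6 were at -0.12, -0.36 and -0.031.

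All 14 genes of the G2/M phase had log2 ratios below 0. Their median was -0.42, and 0 were at least 1.5 times higher and 4 at least 1.5 times lower, namely Ube2c, Hmmr, Cdc20 and Cdk1, against 8.53% and 8.77% of all genes. Without the Leydig-rich cells 6 were lower, with a median of -0.47. For that setting no share of all genes with at least 20 UMIs was computed, for this list or the others. Top2a had 81 against 107 UMIs (-0.41, -0.84 to 0.022), Cenpf 87 against 113 UMIs (-0.38, -0.80 to 0.032), Ccnb2 77 against 85 UMIs (-0.15, -0.61 to 0.31) and Hmmr 15 against 27 UMIs (-0.85, -1.87 to 0.11). Summed, the 14 genes had 810 CPM (750 to 873) in Uchl1+ cells and 1120 CPM (1050 to 1194) in the matched cells. By Uchl1 count the sum had no order, at 1177 CPM in cells with 0 Uchl1 UMIs, 799 CPM with 1, 1025 CPM with 2 and 938 CPM with 3 or more. The share of cells with at least 10 UMIs of these genes, a limit chosen after the values were seen, was 16.3% (9.42 to 25.5%) and 18.5% (11.2 to 27.9%), and these intervals overlapped. The 14 genes were counted in the same cells and are not independent observations.

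Against the same 8.53% and 8.77%, S phase genes had 1 of 10 members higher, Mcm6 (0.95, 0.12 to 1.84), and 2 lower, Mcm5 (-0.80, -2.01 to 0.35) and Gins2 (-0.65, -1.65 to 0.31), with a median of -0.27. The direction of Mcm6 turned under the 5% mitochondrial limit, to -1.41, with only 16 cells per group compared. Slbp was at -0.37, Tyms at -0.0067 and Pcna at -0.35. The S phase list summed to 377 CPM (337 to 420) in the matched Uchl1+ cells and 426 CPM (383 to 472) in the matched cells. By Uchl1 count the sum was 422 CPM (390.1 to 456.6) with 0 UMIs and 316 CPM (269.5 to 369) with 1. It was 493 CPM (387 to 618.5) with 2 and 545 CPM (457.4 to 645) with 3 or more. The interval of the class of 1 lay below that of the cells with 0, and that of the class of 2 overlapped it. The interval of the class of 3 or more lay just above that of the cells with 0. Of 8 genes that hold or time entry into the cell cycle, inhibitors and D-type cyclins together, 1 was higher, Cdkn2d (0.69, 0.031 to 1.38), and 0 lower, with the cyclin gene Ccnd2 at 0.23 and the inhibitors Btg2 at 0.17, Btg1 at 0.56 and Cdkn2c at -0.53. Without the Leydig-rich cells 2 of this list were higher and 1 lower. Btg1 passed 1.5 times in 8 of 12 alternatives, and Cdkn2d fell below it in 3, to 0.0042 under the 5% mitochondrial limit. No immediate early or stress gene of 9 passed 1.5 times, with Hspa8 at -0.065, Jun at 0.36, Fos at -0.25, Hspa1a at 0.58 and Fosb at -0.32. Of 7 metallothionein and redox genes 1 passed it, Mt2, while Prdx2, Prdx1 and Gpx4 were at -0.11, -0.0098 and 0.20. The single neuronal gene with enough UMIs of 10, Tubb3, was at -0.082. Of 8 markers of the rete testis and tubule ends 2 had enough UMIs, Igfbp2 with 3 against 20 UMIs (-2.74, -5.14 to -0.99) and Wfdc2 with 13 against 9 UMIs (0.52, -0.81 to 1.93).

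**Figure D4:**
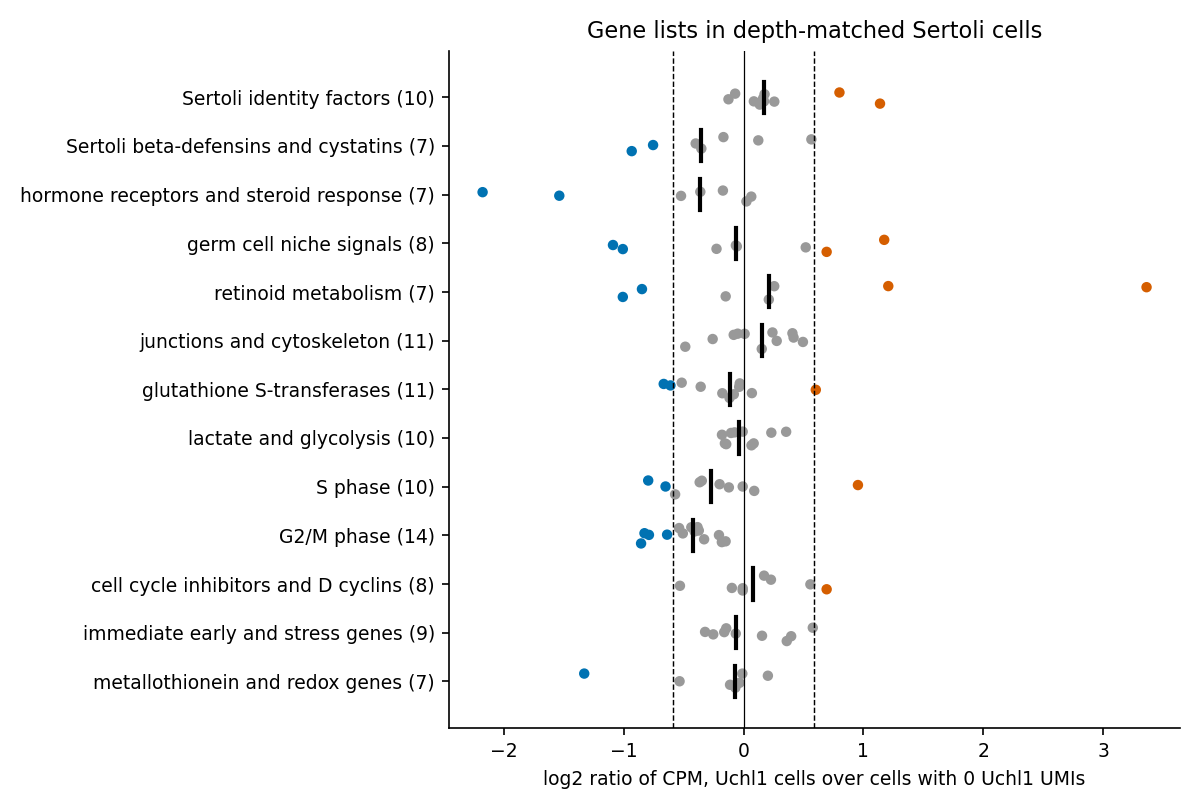
Each point is a gene with at least 20 UMIs in the matched groups, placed by its log2 ratio of Uchl1+ cells over cells with 0 Uchl1 UMIs (vertical jitter only separates points), black bars are list medians, and dashed lines mark 1.5 times. Retinoid genes spread from -1.007 to 3.36, and all 14 G2/M genes lie left of 0.

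Markers of other testis cells, apart from the Leydig genes given above, were at low levels in both groups. The 8 stromal genes outside the selection summed to 22.3 CPM in Uchl1+ and 43.6 CPM in the matched cells, against 3824 CPM in stromal cells. Their most abundant gene was Col1a2 in both groups, with 11 and 18 UMIs, and Lum and Postn were at 0 in Uchl1+ cells. The 7 peritubular myoid genes summed to 211 against 146 CPM, nearly all of it Mylk, a myosin light chain kinase, with 172 against 113 UMIs (0.60, 0.25 to 0.95), while Cnn1 and Des were at 0 in Uchl1+ cells. The part of myoid RNA in this difference was not tested.

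The 8 macrophage genes summed to 27.0 against 23.6 CPM, led by Cd68 with 6 and 4 UMIs, with Csf1r and Adgre1 at 0 in Uchl1+ cells. The 5 endothelial genes summed to 48.1 against 31.8 CPM, led by Kdr with 17 and 11 UMIs (0.62, -0.56 to 1.86), with Egfl7 at 0.41 and Tie1 at 0 UMIs in Uchl1+ cells. The 4 T cell genes had 0 and 2 UMIs. The 5 hemoglobin and red blood cell genes summed to 73.9 against 80.2 CPM, led by Hbb-bs with 36 and 31 UMIs (0.21, -0.52 to 0.95), with Hba-a1 at 15 UMIs in each group and Alas2 at 0.

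Some of the leading genes were high in other somatic cells and some were not. Lgals1 had 2604 CPM in stromal, 2333 CPM in myoid and 3800 CPM in macrophage cells, levels above the 1654 CPM of the matched Uchl1+ cells. By contrast, 8030411F24Rik was at 1.31 CPM in stromal, 1.21 CPM in myoid and 1.79 CPM in germ cells, Cidea at 1.31, 1.21 and 1.79 CPM, Stra6 at 3.94, 3.64 and 0.538 CPM, and Fstl3 at 8.54, 15.8 and 3.05 CPM. Siva1 was at 544 CPM in germ cells, below the 715 CPM of the matched Uchl1+ cells. In macrophages 8030411F24Rik was at 6.88 CPM (1.88 to 17.6) from 4 UMIs, Cidea at 1.72 CPM, and Stra6 and Fstl3 at 0. Thus 8030411F24Rik, Cidea and Stra6 were nearly confined to Sertoli cells among the stromal, myoid, germ and Sertoli cells compared here.

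The levels of the leading genes were also read by Uchl1 count. Both the classes and the genes rest on the counts that made the selection, so these values are a description and no further support. Fstl3 had 30.7 CPM in the 169 cells with 0 Uchl1 UMIs, 56.6 CPM (37.9 to 81.3) in the 53 cells with 1, 193 CPM in the 17 cells with 2 and 244.5 CPM in the 24 cells with 3 or more. Lgals1 had 559, 742, 2237 and 3151 CPM in these classes and 8030411F24Rik 101, 246, 413 and 673.5 CPM. Siva1 had 258, 463, 792 and 1283 CPM and Cidea 63.5, 115, 146.5 and 353 CPM. The cells with a single Uchl1 UMI thus lay closer to those with 0 than to those with 3 or more for each of these 5 genes.

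Among the 3 retinoid genes read this way the values went in both directions. Rdh10 had 6.68, 11.7, 39.95 and 96.2 CPM and Stra6 33.4, 52.7, 99.9 and 128 CPM, while Aldh1a1 had 866, 656, 426 and 325 CPM. Aldh1a1 was still detected in 91.7% of cells with 3 or more Uchl1 UMIs. Nr0b1 had 37.4, 48.8, 79.9 and 164 CPM. Nr5a1, by contrast, had 76.2, 123, 113 and 128 CPM, with values close to one another from 1 UMI on. Cst12 was at 2233, 2263, 2264 and 2826 CPM, Gatm at 1041, 1019, 1045 and 1263 CPM, and Defb36 at 741, 892, 999 and 1415 CPM. The median depths of the 4 classes were 8343, 8518, 7596 and 9259.5 UMIs, highest in the class with 3 or more. These classes were not matched by depth, and the part of depth in their levels was not tested.

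**Figure D5:**
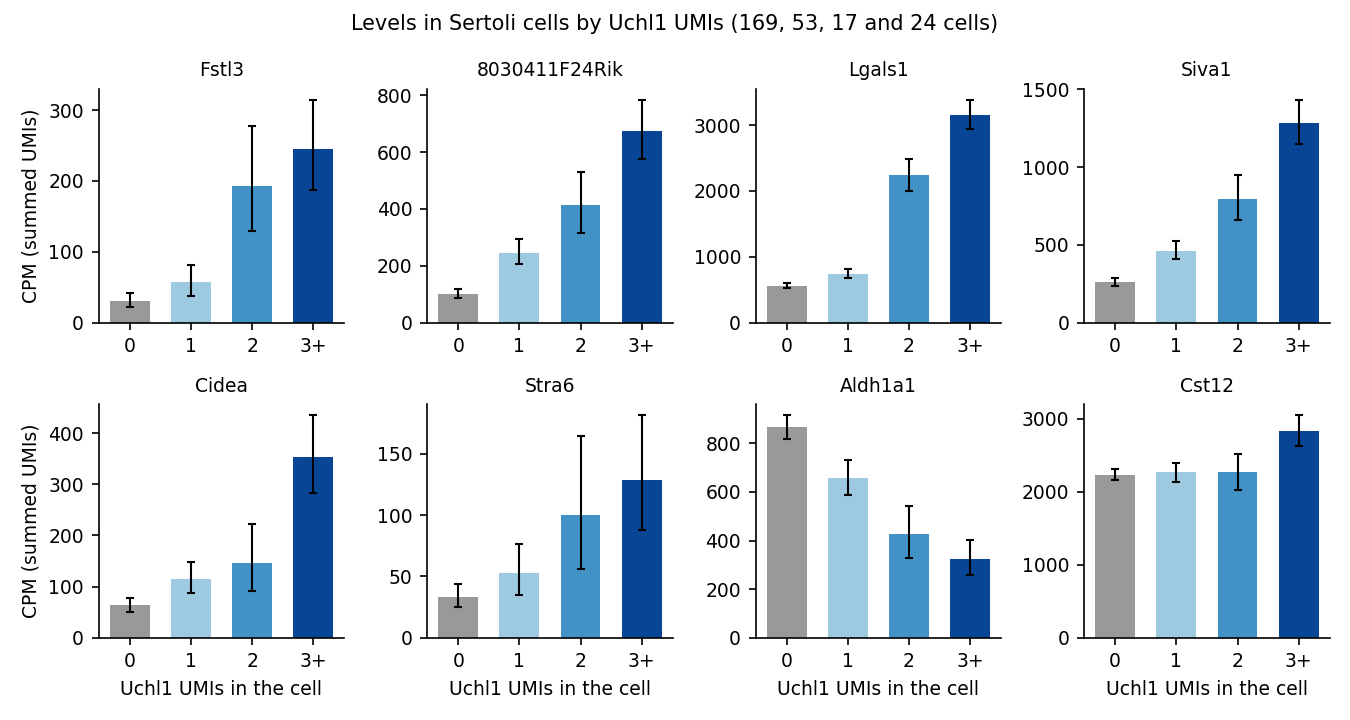
Bars give CPM from summed UMIs of 8 genes in Sertoli cells with 0, 1, 2 and 3 or more Uchl1 UMIs (169, 53, 17 and 24 cells), and lines are exact 95% Poisson intervals. Lgals1 goes from 559 to 3151 CPM and Siva1 from 258 to 1283 CPM across the classes, Aldh1a1 from 866 to 325 CPM, and Cst12 stays at 2233 to 2264 CPM in the first 3 classes.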

How the data were processed

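One Chromium library (v2 chemistry) of Zscan2+/+ testis cells was analysed. The authors processed the reads with Cell Ranger 2.1.0 against mm10 (GRCm38) and deposited unnormalized UMI counts per gene and barcode, and the submitters' processing notes also name Seurat. How the counting treated strand is not given in the sources used here. The deposited counts covered 27998 genes and 970 distinct barcodes, with 2655 to 44915 UMIs per barcode (median 9115) and 11358045 UMIs in all. Of these barcodes 924 passed the filters and were sorted into 327 germ, 263 Sertoli, 175 stromal, 106 peritubular myoid and 43 macrophage cells, with 10 left without a class. No clustering was used.

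Uchl1+ cells were paired, deepest first, with the unused Sertoli cell of nearest depth and 0 Uchl1 UMIs, within 0.25 on the log2 scale. For counting error, 95% intervals were computed as conditional binomial for ratios of CPM, Poisson for levels and Clopper-Pearson for shares, and a limit for a count of 0 is that of 3 counts. The script was tested on simulated data. Python 3.11.15, numpy 2.4.6, scipy 1.17.1, pandas 2.3.3 and scanpy 1.11.5 (scrublet, expected rate 0.01) were used. Scrublet called 4 barcodes, 0 of them Uchl1+, and none was removed in the analysis reported.

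The selected cells, the 25 gene lists and the tests were chosen with earlier results of these data known. The genes named are the 4 markers, the 12 highest and 12 lowest ratios among genes with at least 100 UMIs and a UMI in at least 10% of the cells of either group, and, per list, the 3 members with most UMIs and the highest and lowest ratio among those with at least 20 UMIs. Others named within a list are its members past 1.5 times, and further members named beside them were chosen after their values were seen. Of the genes these rules give, 4 are not reported here and were left out of the list counts, medians and plots, 1 of them among the 12 highest. The 2 list genes Defb24 and Trbc2 had no row. Promoters are from RefSeq and positions from GENCODE.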

Additional observations from a re-analysis of the deposited data

How the results depend on the processing

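The counts of genes past 1.5 times were recomputed under 11 alternatives and 2 more chosen after seeing the data (leaving out the 6 cells rich in Leydig transcripts, and at least 3 Uchl1 UMIs). The number and share of Uchl1+ cells were recomputed only under those that changed the rule for choosing cells. With a mitochondrial limit of 5%, 16 of 59 Sertoli cells were Uchl1+ (27.1%), and 27 of 464 genes were higher (5.82%) and 7 lower (1.51%), against 2.35% and 1.60% in the analysis reported. Requiring 2 Uchl1 UMIs left 41 cells (15.6%), with 54 higher and 53 lower genes of 1173 (4.60% and 4.52%), and requiring 3 left 24 cells (9.13%), with 44 and 32 of 647 (6.80% and 4.95%). Thinning to 4000 UMIs gave 27 higher and 14 lower genes of 1163 (2.32% and 1.20%), use of all 169 cells with 0 Uchl1 UMIs gave 84 higher and 69 lower genes of 3601 (2.33% and 1.92%), and a minimum of 50 UMIs per gene gave 221 higher and 186 lower of 4693 (4.71% and 3.96%). Leaving out the Leydig-rich cells gave 52 higher and 36 lower genes of 2646 (1.97% and 1.36%). Fstl3, 8030411F24Rik, Lgals1, Cidea and Siva1 stayed at least 1.5 times higher in all 12 alternatives that gave them a value, with lowest log2 ratios of 1.42, 1.90, 1.17, 1.12 and 1.29, but 2 of the 12, at least 1000 genes per cell and the changed denominator, could hardly move them. Several ratios of lower genes and of genes with few UMIs changed sign or came to almost no difference. The 5% limit left only 16 cells per group to compare, and no intervals are given for its ratios. Under it Ube2c was at 0.95, Stra6 at -1.32, Mgst3 at 0.14, Mcm6 at -1.41, Hmmr at 0.42 and Cyp17a1 at 0.78. Meg3 was at 0.0042 there, almost no difference. With at least 2 Uchl1 UMIs Meg3 was at 0.32, Inhba at 0.996 and Col1a2, the only stromal gene with enough UMIs and so its list's median, at 1.17. With at least 3 UMIs Bap1 was at -0.59, and Gsta3 was at -0.0042, almost no difference. Without a germ gene UMI Bap1 was at -0.11. Without the Leydig-rich cells Apoe was at 0.20 and Inhba at 0.58. The cause was not tested. Of the other values, 1238 single-gene and list values stayed within the main counting interval and 181 moved outside it without a change of sign in a called value. Depth limits every gene under about 20 UMIs. No paired analysis was possible because there is 1 library.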
